A study of Mus musculus with 10 samples.

Results

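The 9 genes followed here, G6pc, Pck1, Fbp1, Pcx, Pklr, Pfkfb1, Slc2a2, Gys2 and Pygl, serve hepatic glucose handling and were measured in livers of old mice with and without Arg2 in hepatocytes. They were chosen by name for their roles in making, using, moving and storing glucose, not by a rule on their values. Earlier results of these data were known at that choice. All 9 were found among the 55487 genes of the deposited table, each under 1 Ensembl identifier. The LKO livers (5 libraries) came from mice lacking Arg2, the gene of the mitochondrial arginase, in hepatocytes, and the Flox livers (5 libraries) from littermates with floxed Arg2 alleles. All mice were of strain C57B/6J as the labels spell it, 22 months old, housed together and kept on normal chow throughout. The Cre driver behind the deletion, the hour of collection and whether food was withdrawn beforehand go unstated in the labels. Each library is oligo-dT selected RNA of whole liver tissue, in which fewer cells of a type and less RNA per cell cannot be told apart.

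The liver keeps blood glucose steady by switching between release and uptake. In fasting, glucagon and glucocorticoids raise gluconeogenesis, which turns lactate, amino acids and glycerol into glucose, and glycogen phosphorylase frees stored glucose. After a meal, insulin and glucose itself favour glycolysis, glycogen synthesis and fat synthesis, partly through the glucose-sensing factor ChREBP and the insulin-responsive factor SREBP1c.

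The 10 libraries held 43331354 to 54951415 gene counts, so a gene with no count could still hold 3 counts, equal to 0.0546 to 0.0692 CPM (the count relative to the library's scaled total). Arg2 itself had 10 counts over the 5 LKO libraries and 9 over the 5 Flox libraries, so at this depth the table does not check the deletion. Libraries Flox 2 and Flox 3 stood apart through serum amyloid, the secreted proteins of the acute phase response. Saa1 and Saa2 took at most 0.0803% of counts in any LKO library, and 1.72% in Flox 2, 3.43% in Flox 3, 0.394% in Flox 4 and at most 0.0097% in Flox 1 and 5. The genes Saa1 and Saa2 are near-identical copies and their reads may be lost or split. LKO libraries are named by their column number in the table, which does not match the numbers of the LKO titles.

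Between LKO and Flox livers none of the 9 members passed the test. Pck1, which commits carbon to gluconeogenesis, had a lower mean in LKO, and the means of Pklr, Slc2a2, Gys2 and Pygl, which serve glycolysis, glucose transport and glycogen, were higher in LKO. With edgeR's quasi-likelihood test and Benjamini-Hochberg adjustment over all 15894 genes tested, 0 of 9 members passed the threshold of 0.05, against 0% of all genes. All 9 members passed the filter on low counts, and their adjusted p-values ran from 0.652 for Pck1 to 0.954 for G6pc. At an unadjusted p under 0.05 there was 1 member, Pck1, against 7.51% of all genes in either direction and 4.33% on the lower side. DESeq2 and limma-voom also called 0 of the 9 members at an adjusted p of 0.05. In 0 members were the LKO and Flox libraries separate, whereas 0.906% of all genes had groups that did not overlap. The fold change was positive for 7 members and negative for Pck1 and Pcx, with a median of 0.35 on the log2 scale against -0.01 for all genes tested. Without Flox 2 and 3 the median of the members was 0.02, and 6 of the 9 were positive.

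**Figure D1:**
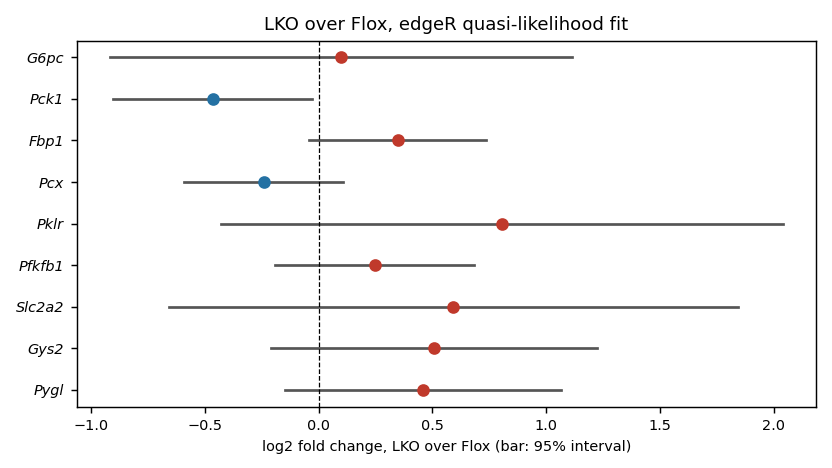
Log2 fold change of LKO over Flox for each of the 9 members (x axis) with its 95% interval from the edgeR quasi-likelihood fit, n = 5 libraries each. Before adjustment the interval of Pck1 ran from -0.90 to -0.03, and the other 8 intervals include 0.

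Gluconeogenesis was read through 4 members. G6pc (GRCm38 chr11:101367561-101377903, plus strand) encodes the catalytic subunit of glucose 6-phosphatase, the last step before glucose leaves the hepatocyte. G6pc stood at 213, 125, 156, 157 and 142 CPM in LKO columns 1 to 5 and at 347, 125, 41.5, 108 and 117 CPM in Flox 1 to 5. The Flox libraries held both the highest and the lowest value of the whole set, and the LKO libraries lay between them. G6pc averaged 158 ± 33.1 CPM in LKO and 148 ± 116 CPM in Flox (SD, n = 5 each), which is a log2 change of 0.10 ± 0.45 (SE) with a 95% interval of -0.92 to 1.11. The direction turned without Flox 3 (-0.13), without LKO column 1 (-0.03) and without both Flox 2 and 3 (-0.27).

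Pck1 (chr2:173153048-173159273, plus strand) encodes cytosolic phosphoenolpyruvate carboxykinase, which turns oxaloacetate into phosphoenolpyruvate and is controlled mainly through transcription. The 250 bases before its RefSeq start are shown because cAMP, the messenger of glucagon, is known from the rat gene to act through this stretch (build GRCm38.p6, chr2:173152823-173153072, plus strand). Capitals mark CGTCA, the reverse complement of TGACG, which is the core of the cAMP response element.
Pck1 promoter: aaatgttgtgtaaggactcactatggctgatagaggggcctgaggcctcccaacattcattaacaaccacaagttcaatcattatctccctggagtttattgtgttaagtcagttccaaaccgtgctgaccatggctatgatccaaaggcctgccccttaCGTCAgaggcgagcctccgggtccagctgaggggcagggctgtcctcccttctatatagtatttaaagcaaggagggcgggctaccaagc
The core lay at bases -90 to -86 counted back from the start, and 17.8% of the 32851 mouse promoters in the RefSeq table hold it on either strand within 250 bases. The full element TGACGTCA, which contains the core, was not in this window and occurs in 1.55% of promoters.

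Pck1 read 922, 1348, 1685, 1528 and 1429 CPM in LKO columns 1 to 5 and 1929.6, 2616, 1599, 2005 and 1402 CPM in Flox 1 to 5. The 3 highest libraries were Flox 2, 4 and 1 and the lowest was LKO column 1, while LKO columns 3, 4 and 5 lay above the lowest Flox library, Flox 5. The mean was 1383 ± 286 CPM in LKO and 1910.3 ± 464 CPM in Flox (SD, n = 5 each). Its log2 fold change was -0.47 ± 0.20 (SE), and the edgeR p was 0.652 after adjustment and 0.0385 before it. Without Flox 2 and 3 the fold change was -0.37 (unadjusted p = 0.0924 in the same fit), and leaving out single libraries moved it between -0.56 and -0.33.

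Fbp1 (chr13:62864753-62888282, minus strand) encodes fructose 1,6-bisphosphatase, which opposes phosphofructokinase. Its values were 1107, 811, 874, 828 and 1237 CPM in LKO columns 1 to 5 and 757, 748, 532, 803 and 979.6 CPM in Flox 1 to 5. LKO columns 5 and 1 were the highest and Flox 3 the lowest, with the remaining libraries within 748 to 979.6 CPM. Fbp1 averaged 971 ± 190.2 CPM in LKO and 764 ± 160 CPM in Flox (SD, n = 5 each), which is a log2 change of 0.35 ± 0.18 (SE; adjusted p = 0.656 by edgeR). It was 0.20 without Flox 2 and 3.

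Pcx (chr19:4510472-4621752, plus strand) encodes pyruvate carboxylase, the mitochondrial entry step that makes oxaloacetate from pyruvate. Pcx stood at 655, 509, 482, 419 and 690.4 CPM in LKO columns 1 to 5 and at 608, 704, 744, 524 and 677 CPM in Flox 1 to 5. The highest values were those of Flox 3 and 2, the libraries in which most other members were lowest. The means were 551 ± 117 CPM in LKO and 652 ± 86.8 CPM in Flox (SD, n = 5 each), which is a log2 change of -0.24 ± 0.16 (SE; adjusted p = 0.681 by edgeR). It was -0.13 without Flox 2 and 3 and -0.16 without LKO column 4.

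Glycolysis was read through Pklr and Pfkfb1. Pklr (chr3:89136142-89146784, plus strand) encodes the liver and red cell form of pyruvate kinase, whose transcription in hepatocytes is known to follow glucose through ChREBP. The RefSeq table holds more than 1 start of the gene, and the 250 bases before the downstream start, that of the liver form, are shown because the carbohydrate response element bound by ChREBP was described in this promoter in the rat (build GRCm38.p6, chr3:89136373-89136622, plus strand). Capitals mark the match to that element, a pair of E box motifs set apart by a fixed gap.
Pklr promoter, downstream start: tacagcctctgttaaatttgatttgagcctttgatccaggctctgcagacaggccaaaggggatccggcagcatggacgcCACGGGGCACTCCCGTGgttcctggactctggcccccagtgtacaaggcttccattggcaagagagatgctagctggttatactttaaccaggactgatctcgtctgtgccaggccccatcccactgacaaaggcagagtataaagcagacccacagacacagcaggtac
The match spans bases -170 to -154 and reads as a match on both strands, and 0.0974% of the 32851 promoters hold such a match. No other promoter of the members in the table held it, and the table covers 8 of the 9 members with 13 starts in all.

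Pklr was at 353, 245, 169, 256 and 525 CPM in LKO columns 1 to 5 and at 211, 69.7, 44.4, 178 and 382 CPM in Flox 1 to 5. LKO column 5 and Flox 5 were the highest, and Flox 2 and 3 were far below the other 8 libraries. Means were 309.5 ± 137 CPM in LKO and 177 ± 134 CPM in Flox (SD, n = 5 each), and the log2 fold change of 0.81 ± 0.55 (SE) had a 95% interval of -0.43 to 2.04 (adjusted p = 0.695 by edgeR). Without Flox 2 and 3 the log2 fold change was 0.27, and without Flox 5 it was 1.30.

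Pfkfb1 (chrX:150588229-150643878, plus strand) encodes the liver form of the bifunctional enzyme that makes and removes fructose 2,6-bisphosphate, the signal that turns glycolysis on and gluconeogenesis off. Pfkfb1 measured 37.0, 28.4, 27.97, 31.4 and 44.8 CPM in LKO columns 1 to 5 and 35.6, 19.4, 23.2, 25.9 and 38.9 CPM in Flox 1 to 5. LKO column 5 and Flox 5 were again the highest and Flox 2 and 3 the lowest. The log2 fold change was 0.25 ± 0.20 (SE; adjusted p = 0.738 by edgeR), and 0.02 without Flox 2 and 3. Leaving out 1 library gave 0.13 (LKO column 5), 0.14 (Flox 2) or 0.38 (Flox 5).

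Slc2a2 (chr3:28697903-28731359, plus strand) encodes GLUT2, the facilitative transporter that carries glucose both into and out of hepatocytes. Its 250 bases before the RefSeq start are shown beside those of Pklr because the levels of both genes followed each other closely over the libraries (build GRCm38.p6, chr3:28697653-28697902, plus strand), and no base is in capitals because none of the motifs searched matched.
Slc2a2 promoter: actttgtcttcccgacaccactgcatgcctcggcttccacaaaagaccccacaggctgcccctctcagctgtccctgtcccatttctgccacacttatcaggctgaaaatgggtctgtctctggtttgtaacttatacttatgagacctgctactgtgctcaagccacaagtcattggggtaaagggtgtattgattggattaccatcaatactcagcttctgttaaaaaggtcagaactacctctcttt
Besides the carbohydrate response element and both forms of the cAMP response element, the search covered the E box CACGTG (6.02% of promoters) and the FOXO site TGTTTAC (3.17% of promoters), on both strands.

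Slc2a2 stood at 299, 264, 168, 273 and 360.3 CPM in LKO columns 1 to 5 and at 236, 57.2, 36.3, 206 and 369 CPM in Flox 1 to 5. Flox 5 and LKO column 5 shared the top, and Flox 2 and 3 held less than the lowest of the other 8 libraries by a wide margin. The group means were 273 ± 69.5 CPM in LKO and 181 ± 137 CPM in Flox (SD, n = 5 each), which is a log2 change of 0.59 ± 0.56 (SE; adjusted p = 0.769 by edgeR). It was 0.01 without Flox 2 and 3, 0.36 without Flox 2, 0.33 without Flox 3 and 1.03 without Flox 5.

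Glycogen was read through its liver-specific synthase and phosphorylase. Gys2 (chr6:142422613-142473109, minus strand), the synthase, had 115, 99.7, 103, 125 and 186 CPM in LKO columns 1 to 5 and 105, 54.6, 43.2, 87.8 and 152 CPM in Flox 1 to 5. The order of libraries resembled that of Pklr, with LKO column 5 and Flox 5 highest and Flox 3 and 2 lowest. Its log2 fold change was 0.51 ± 0.32 (SE; adjusted p = 0.676 by edgeR), and 0.13 without Flox 2 and 3. Leaving out 1 library gave 0.33 (LKO column 5), 0.34 (Flox 3) or 0.79 (Flox 5). Pygl (chr12:70190811-70231488, minus strand), the phosphorylase that releases glucose units from glycogen, measured 717, 617, 537, 605 and 614 CPM in LKO columns 1 to 5 and 625.2, 343, 185, 457 and 638 CPM in Flox 1 to 5. The LKO libraries were close together, with a coefficient of variation of 10.4%, against 42.7% in Flox. The log2 fold change of Pygl was 0.46 ± 0.28 (SE; adjusted p = 0.671 by edgeR), 0.27 without Flox 3 and 0.11 without Flox 2 and 3.

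**Figure D2:**
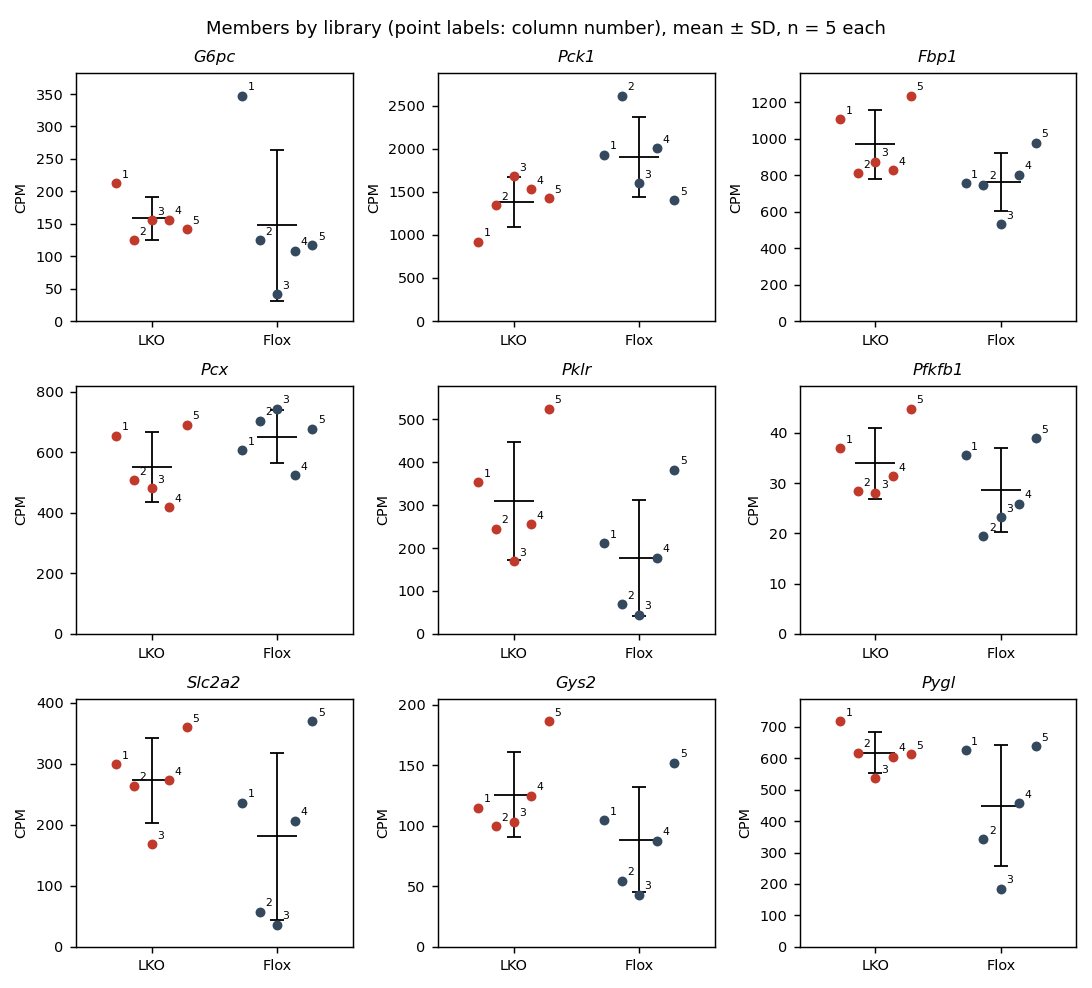
CPM of each member (y axes, from 0) in the 5 LKO and 5 Flox libraries, each point labelled with its column number, with the mean and SD of each group. Flox 2 and 3 are the lowest points for Pklr, Slc2a2, Gys2, Pygl and Pfkfb1, and the groups overlap in all 9 panels.

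Divided by the merged length of their annotated exons, the levels of the members spanned a wide range. In CPM per kilobase, Fbp1 averaged 571 ± 112 in LKO and 449 ± 93.9 in Flox, and Pck1 403 ± 83.5 in LKO and 557 ± 135 in Flox (SD, n = 5 each). Fbp1 was above Pck1 in 5 of 5 LKO libraries and in 1 of 5 Flox libraries. Pcx followed at 116 ± 24.5 in LKO and 137 ± 18.3 in Flox, below Pck1 in every library of both groups. Pklr, Pygl and G6pc came next, between 65.6 and 95.7 in LKO and between 54.7 and 65.2 in Flox as group means. Their SDs overlapped in Flox, but in LKO those of Pygl (89.6 ± 9.34) and G6pc (65.6 ± 13.7) did not. Pygl was above G6pc in 5 of 5 LKO libraries and in 3 of 5 Flox libraries. Slc2a2 averaged 47.4 CPM per kilobase in LKO and 31.5 in Flox and Gys2 47.4 in LKO and 33.3 in Flox, and which of the pair was higher varied between libraries (Slc2a2 above in 3 of 5 in each group). Pfkfb1 was the lowest member, at 8.44 ± 1.76 in LKO and 7.12 ± 2.07 in Flox. Merged exons include those of rare transcripts, so levels per kilobase understate genes with many annotated forms.

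The members differed in how much they varied over the 10 libraries. The standard deviation of log2 CPM was 1.13 for Slc2a2, 1.096 for Pklr and 0.78 for G6pc, against a median of 0.22 over 10907 genes with a mean log2 CPM of at least 1. Only 1.49% of those genes varied more than Slc2a2 and 1.63% more than Pklr. Gys2 (0.63) and Pygl (0.59) lay between these and Pck1 (0.40), Pfkfb1 (0.37), Fbp1 (0.34) and Pcx (0.28). From the lowest to the highest library Pklr spanned 11.8-fold, Slc2a2 10.2-fold, G6pc 8.36-fold and Pcx 1.78-fold. Flox 2 and 3 set the low ends of Pklr and Slc2a2. In the other libraries Pklr ran from 169 to 525 CPM and Slc2a2 from 168 to 369 CPM.

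Several of the members moved together from library to library across the role boundaries. Pklr and Slc2a2 were the closest pair over the 10 libraries on the log2 CPM scale (Pearson r = 0.98, adjusted p = 0.00063 by a permutation test; Spearman rho = 0.99, adjusted p = 0.00063), where 63 relations were computed and adjusted together and the unadjusted p of 1e-05 is the smallest these permutations can give. Leaving out the 2 libraries farthest from the median of Pklr, which were Flox 2 and 3, left r at 0.94, with an adjusted p of 0.0488 by the permutation test. Pklr with Gys2 gave r = 0.98 (adjusted permutation p = 0.000945; rho = 0.93, adjusted permutation p = 0.00336) and r = 0.90 without the same libraries. For Pklr with Pfkfb1 r was 0.89 (adjusted permutation p = 0.00246; rho = 0.94, adjusted permutation p = 0.00336), and it was also 0.89 without Flox 2 and 3. Pklr with Fbp1 gave r = 0.89 (adjusted permutation p = 0.00227; rho = 0.85, adjusted permutation p = 0.0133), although Fbp1 acts in the opposite direction of the pathway. It was 0.71 without LKO column 5 and Flox 3, the libraries farthest from the median of Fbp1.

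Of the 36 pairs of members, 16 passed the adjusted threshold, all with a positive r, and 4 passed without Flox 2 and 3. Pck1 and Pcx took part in none of the 16. Pck1 with Pklr had a negative r of -0.58 that did not pass (adjusted permutation p = 0.165; rho = -0.70, adjusted permutation p = 0.0823), and r was -0.35 without LKO column 1 and Flox 2. The gluconeogenic genes G6pc and Pck1 did not follow each other (r = -0.10, adjusted permutation p = 0.845; rho = -0.21, adjusted permutation p = 0.693), and r was -0.66 without Flox 1 and 3. Pygl was the 1 member whose relation with G6pc passed (r = 0.80, adjusted permutation p = 0.0244; rho = 0.59, adjusted permutation p = 0.163), and that r was 0.52 without Flox 1 and 3. The libraries include both groups, and with group means subtracted 18 of the 63 relations passed instead of 23.

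**Figure D3:**
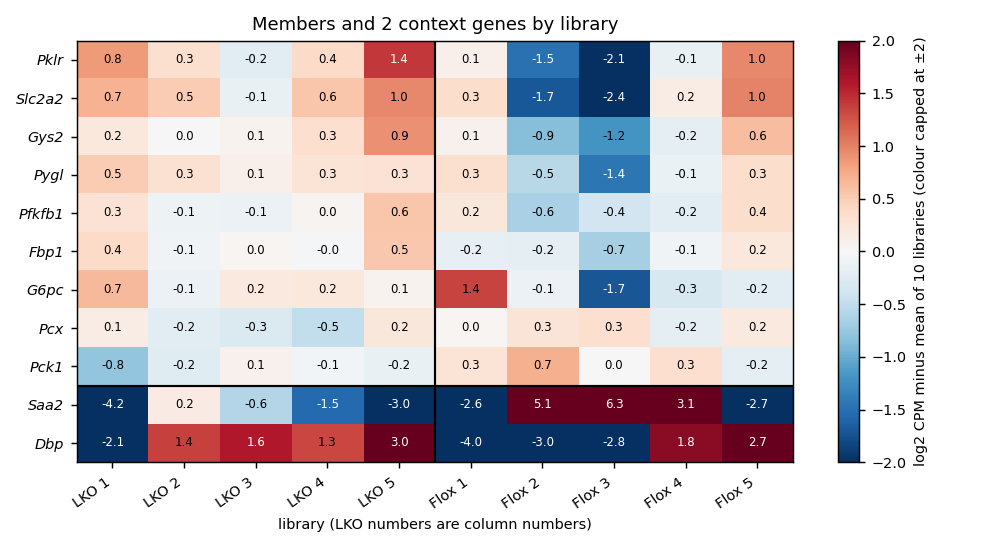
Log2 CPM of the 9 members, and of Saa2 and Dbp below the line, in each library (x axis, LKO left of Flox), as the difference from the mean of the 10 libraries. The rows from Pklr to Pfkfb1 are lowest in Flox 2 and 3, where Saa2 is highest, and Pck1 and Pcx are not low there.

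Saa2, a gene of the acute phase response, also varied widely between the libraries. Like Dbp and Hbb-bs, it was set beside the members because it was already known to vary between these libraries. Saa2 was at 12.1, 248, 148, 75.8 and 28.3 CPM in LKO columns 1 to 5 and at 37.8, 7476, 17181, 1874 and 33.3 CPM in Flox 1 to 5. The relation with Saa2 passed for 7 of the 9 members, each with a negative r, the exceptions being Pck1 and Pcx. Without Flox 2 and 3, with 8 libraries, it passed for 1 member, Pygl. Pfkfb1 fell just short there, with r at -0.84 (adjusted permutation p = 0.0567). Over all 10 libraries its r was -0.90 (adjusted permutation p = 0.00151). For Slc2a2 r was -0.89 (adjusted permutation p = 0.0045; rho = -0.87, adjusted permutation p = 0.0132), but without Flox 2 and 3 it was -0.62 and did not pass (adjusted permutation p = 0.233). For Pygl r was -0.91 (adjusted permutation p = 0.00142; rho = -0.87, adjusted permutation p = 0.0132) and -0.90 without Flox 2 and 3 (adjusted permutation p = 0.0488). The part of the acute phase response in the levels of the members was not tested. With Dbp, an output gene of the circadian clock, and with Hbb-bs, a beta globin with near-identical copies, 0 of 9 members passed. None passed without Flox 2 and 3 either, although r of G6pc with Dbp went from -0.12 to -0.92 (adjusted permutation p = 0.0567). Dbp itself ranged from 3.13 to 111 CPM in LKO and from 0.798 to 91.0 CPM in Flox, and it was lowest in Flox 1, 2 and 3 and LKO column 1.

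**Figure D4:**
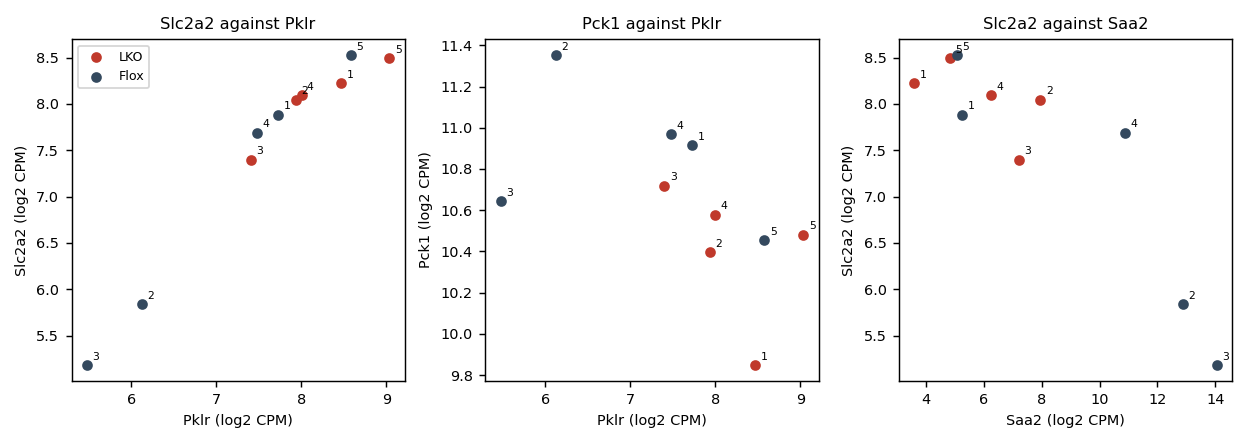
Log2 CPM of Slc2a2 against Pklr, Pck1 against Pklr and Slc2a2 against Saa2 in the 10 libraries, labelled by column number. Slc2a2 rises with Pklr through both groups (r = 0.98), Pck1 has no relation with Pklr that passed (r = -0.58), and the low Slc2a2 of Flox 2 and 3 stands at the highest Saa2.

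Set against each other within a library, the gluconeogenic members stood further above the glycolytic members in most Flox libraries. The difference between the mean log2 CPM of G6pc, Pck1, Fbp1 and Pcx and that of Pklr and Pfkfb1 was 2.43, 2.62, 3.07, 2.58 and 2.07 in LKO columns 1 to 5 and 3.10, 4.13, 3.65, 3.02 and 2.24 in Flox 1 to 5. Flox 5 lay among the LKO libraries, and LKO column 3 among the Flox libraries. The means were 2.55 ± 0.36 in LKO and 3.23 ± 0.71 in Flox (SD, n = 5 each), a difference of -0.67, which was -0.45 without Flox 2 and -0.23 without Flox 2 and 3. No p is given, since this is a score over chosen genes. Over all libraries the glycolytic side averaged 6.61 ± 0.45 in LKO and 5.93 ± 0.82 in Flox, while the gluconeogenic side averaged 9.17 ± 0.14 in LKO and 9.16 ± 0.33 in Flox as mean log2 CPM. Without Flox 2 and 3 the sides differed by similar amounts, 6.61 in LKO and 6.49 in Flox for the glycolytic side and 9.17 in LKO and 9.27 in Flox for the gluconeogenic side. The gluconeogenic mean joins members with fold changes of both signs, negative for Pck1 and Pcx and positive for Fbp1 and G6pc.

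**Figure D5:**
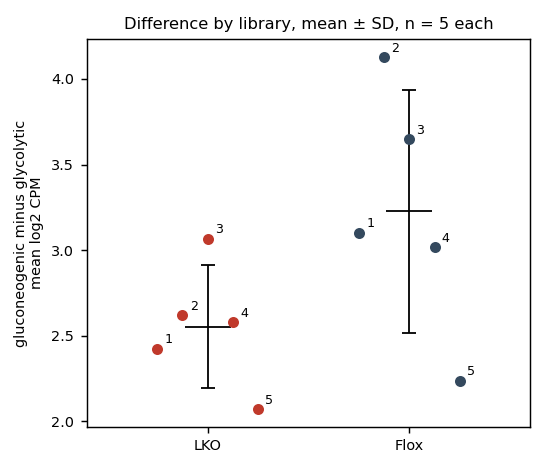
Mean log2 CPM of G6pc, Pck1, Fbp1 and Pcx minus that of Pklr and Pfkfb1 (y axis) in each LKO and Flox library, labelled by column number, with the mean and SD of each group. The 5 LKO values lie between 2.07 and 3.07 and the 5 Flox values between 2.24 and 4.13.

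Genes of the wider pathway were taken from 10 lists, of which 139 genes were tested, and 0 passed edgeR's test adjusted over all genes. The lists include members, among them Pck1, Fbp1, G6pc and Pklr, so their counts and medians are not separate from the values of the members. At an unadjusted p under 0.05 there were 8 higher and 4 lower, or 8.63% of them against 7.51% of all genes. DESeq2 called 1 of them, Angptl8. The median log2 fold change over the 139 genes was 0.13, against -0.01 for all genes tested, and 94 (67.6%) had positive fold changes, against 48.4% of all genes tested. Without Flox 2 and 3 the median of the 139 was 0.0067 and 72 (51.8%) were positive, against 48.9% of all genes tested.

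In the gluconeogenesis list 19 of 20 genes were tested, 15 with positive and 4 with negative fold changes and a median of 0.17, which was 0.0017 without Flox 2 and 3 and 0.11 without Flox 2. Fbp2, the muscle form of the bisphosphatase, fell below the filter. Pck2, the mitochondrial carboxykinase, averaged 4.70 ± 1.55 CPM in LKO and 4.35 ± 1.41 CPM in Flox (SD, n = 5 each), and G6pc3, the widely expressed phosphatase, 4.47 ± 0.95 CPM in LKO and 4.78 ± 1.24 CPM in Flox. Slc37a4, which carries glucose 6-phosphate to the phosphatase, averaged 112 ± 19.7 CPM in LKO and 93.6 ± 24.4 CPM in Flox.

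Among 28 tested glycolysis genes, 18 had positive and 10 negative fold changes, with a median of 0.11, which was 0.015 without Flox 2 and 3 and 0.17 without LKO column 4. Ldha, lactate dehydrogenase A, stood at 829.4, 699, 648, 622 and 824 CPM in LKO columns 1 to 5 and at 814, 1442, 1440.3, 841 and 851 CPM in Flox 1 to 5, so that its log2 fold change of -0.57 ± 0.20 (SE; adjusted p = 0.652 by edgeR) came with high values in Flox 2 and 3. Pfkm, a phosphofructokinase, averaged 17.96 ± 0.73 CPM in LKO and 14.1 ± 3.16 CPM in Flox (0.35 ± 0.14 SE; adjusted p = 0.652). Hk1 averaged 3.51 CPM in LKO and 3.96 CPM in Flox and Pfkl, the liver phosphofructokinase, 51.4 CPM in LKO and 48.5 CPM in Flox. Pkm, the pyruvate kinase of most other cells, had 13.1 to 18.6 CPM in LKO, against 14.6 to 53.6 CPM in Flox with the highest value in Flox 3 (-0.76 ± 0.36 SE; adjusted p = 0.652).

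Glycogen synthesis genes were split, with 10 positive and 7 negative fold changes among 17 tested. Their median of 0.07 was -0.012 without Flox 2 and 3, and leaving out single libraries gave -0.0097 (LKO column 5) to 0.13 (Flox 5). Ugp2, which makes UDP-glucose, averaged 219 ± 29.8 CPM in LKO and 151 ± 54.4 CPM in Flox (log2 fold change 0.54 ± 0.22 SE; adjusted p = 0.652 by edgeR), and Nhlrc1, a ubiquitin ligase of glycogen quality control, 2.76 ± 0.95 CPM in LKO and 1.86 ± 0.36 CPM in Flox. Ppp1r3b, the liver subunit that targets protein phosphatase to glycogen, averaged 292 ± 103 CPM in LKO and 229 ± 68.6 CPM in Flox. Gys1, the muscle synthase, averaged 2.14 CPM in LKO and 2.41 CPM in Flox. Of 9 tested glycogen breakdown genes, 8 had positive fold changes, with a median of 0.20 that was 0.099 without Flox 2 and 3. Phkb, a subunit of phosphorylase kinase with the smallest p of this list, was 1 of the 0.906% of all genes whose groups did not overlap. It lay at 18.4 to 19.8 CPM in LKO and 14.8 to 17.2 CPM in Flox (0.20 ± 0.08 SE; adjusted p = 0.652 by edgeR). Pygb, the brain phosphorylase, averaged 5.01 ± 1.97 CPM in LKO and 3.67 ± 1.595 CPM in Flox.

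Of the sugar transporters 8 of 11 genes were tested, 4 positive and 4 negative, with a median of 0.05. That median was -0.054 without Flox 2 and 3, and it ran from -0.029 without LKO column 5 to 0.21 without Flox 4. Slc2a1, the transporter of most other cells, averaged 9.21 ± 1.66 CPM in LKO and 10.8 ± 1.38 CPM in Flox, and Slc2a6 0.348 CPM in LKO and 1.03 CPM in Flox. In the list of pyruvate entry 11 of 15 had positive fold changes, with a median of 0.16 that was 0.088 without Flox 2 and 3 and 0.075 (without Flox 4) to 0.22 (without Flox 1) with 1 library left out. The smallest p were those of Pdpr, a regulator of pyruvate dehydrogenase phosphatase (13.0 ± 0.59 CPM in LKO and 11.0 ± 1.67 CPM in Flox), and Pdhb, a dehydrogenase subunit (106 ± 9.49 CPM in LKO and 85.2 ± 21.0 CPM in Flox). Of the fructose and ChREBP list 8 of 11 were positive, with a median of 0.22 that was -0.021 without Flox 2 and 3 and 0.056 (without Flox 2) to 0.29 (without LKO column 3) with 1 library left out. The smallest p were those of Rpia of the pentose phosphate pathway (6.68 ± 1.28 CPM in LKO and 5.10 ± 1.83 CPM in Flox) and Txnip, a glucose-induced arrestin (30.5 ± 15.4 CPM in LKO and 22.3 ± 5.86 CPM in Flox).

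Among 17 genes of fasting regulators 8 had positive and 9 negative fold changes, with a median of -0.08 that ran from -0.095 without LKO column 5 to -0.0028 without Flox 1. Nr3c1 and Gcgr are named for the smallest p of this list. Nr3c1, the glucocorticoid receptor, lay at 63.1 to 81.8 CPM in LKO and 52.8 to 61.3 CPM in Flox (0.28 ± 0.09 SE; adjusted p = 0.652 by edgeR). Its groups did not overlap, as in 0.906% of all genes. Gcgr, the glucagon receptor, lay at 124 to 173 CPM in LKO and 160.2 to 217 CPM in Flox (-0.34 ± 0.12 SE; adjusted p = 0.652 by edgeR). In the list of 12 genes induced by fasting, which includes G6pc and Pck1, 4 were positive and 8 negative, with a median of -0.07. Its sign turned without Flox 1 (0.075), LKO column 2 (0.036) or LKO column 3 (0.0065), and it was -0.22 without LKO column 5 and -0.11 without Flox 2 and 3. Igfbp1, a binding protein that insulin represses, was at 11.3 to 18.4 CPM in LKO, and in Flox at 199 CPM in library 1 and 10.4 to 32.4 CPM in the other 4. Pdk4, the fasting-induced kinase of pyruvate dehydrogenase, had 26.7 CPM in LKO column 1 and 26.2 CPM in Flox 1, and 2.25 to 10.3 CPM in the other 8. These 2 libraries had the highest G6pc of their groups, but Pck1 was lowest of all libraries in LKO column 1 (922 CPM). A relation of Pdk4 with G6pc was not computed.

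All 12 genes of the fed-state list, which includes Pklr and otherwise holds mostly fat synthesis genes, had positive fold changes, with a median of 0.64. The median was 0.07 without Flox 2 and 3, 0.35 without Flox 3, 0.40 without Flox 2 or LKO column 5 and 1.09 without Flox 5. Angptl8, a feeding-induced inhibitor of lipoprotein lipase, stood at 110, 78.4, 119, 85.2 and 91.0 CPM in LKO columns 1 to 5 and at 31.6, 50.5, 45.0, 60.2 and 75.1 CPM in Flox 1 to 5. Its groups did not overlap, as in 0.906% of all genes, and it is named for the smallest p of the list. The log2 fold change of Angptl8 was 0.88 ± 0.21 (SE; adjusted p = 0.652 by edgeR and 0.0493 by DESeq2).

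The genes whose profile over the 10 libraries was most like that of each member were ranked by Pearson r on the log2 CPM scale among the same 10907 genes, as a description with no test. For Pklr they were Wfdc1, Acacb and Elovl6, with r from 0.98 to 0.99. Acacb and Elovl6 are enzymes of fatty acid metabolism. For Slc2a2 they were Acss2, an acetyl-CoA synthetase, Hcn3 and Sc5d, a cholesterol synthesis enzyme, with r from 0.98 to 0.99, and for Gys2 Samm50, Wfdc1 and Prss8. Pygl was most like Zadh2, Gask1a and Olfml1, and Pfkfb1 most like Tlr5, Vac14 and Gm32468, with r from 0.98 to 0.99. Fbp1 was most like Prmt7, Slc25a3 and Zc3h7b (0.96) and Pcx most like Fkbp8, Guk1 and Rad1 (0.96 to 0.98). G6pc and Pck1 had less close neighbours, led by Utp14b at 0.96 for G6pc and by Cic at 0.93 for Pck1. All 10 libraries enter these values, Flox 2 and 3 included.

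Markers of other cells and states moved between the libraries beside these genes. All 18 acute phase genes had negative fold changes, with summed levels of 19349 to 34621 CPM in LKO and 18457 to 124109 CPM in Flox. Summed hepatocyte markers lay at 140303 to 166792 CPM in LKO and 63572 to 135946 CPM in Flox, with 8 of 9 genes positive. Periportal markers, of the zone where gluconeogenesis is strongest, were positive for 9 of 10, Pck1 being the exception, at 8244 to 10498 CPM in LKO and 4773 to 9814 CPM in Flox, and pericentral markers negative for 8 of 10. The 7 tested T and NK cell markers were all negative, at 1.71 to 3.55 CPM in LKO and 3.33 to 10.3 CPM in Flox for the 8 genes of the list, and the 7 erythroid genes all positive, at 451 to 885 CPM in LKO and 225 to 399 CPM in Flox. Kupffer cell markers (8 of 8 negative) were at 53.4 to 450.3 CPM in LKO and 78.8 to 514 CPM in Flox. None of these marker genes was at 0 in all libraries, none passed the adjusted edgeR test, and their part in the levels of the members was not tested.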

How the data were processed

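Per the labels, total RNA of liver tissue was extracted with Trizol and oligo-dT was used, and the tools in the submitters' processing notes are STAR 2.5.1a, featureCounts 1.4.6-p5, Subread and bcl2fastq, with build GRCm38. The deposited table holds the authors' whole-number counts per Ensembl gene, with no normalization. The strand setting, the annotation release and the handling of multiply mapped reads go unstated in the labels, so overlapping and antisense genes cannot be separated and near-identical copies are uncertain. Of 55774 rows, 287 repeats of an identifier were dropped.

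Genes were filtered with filterByExpr, scaled by TMM (factors 0.963 to 1.04) and compared, LKO over Flox, with edgeR 4.0.16 (quasi-likelihood, robust, two-sided, R 4.3.3), with Benjamini-Hochberg adjustment over all 15894 genes and a threshold of 0.05. SEs come from the F statistic. DESeq2 1.42.0 and limma 3.58.1 were alternatives. The code was tested on simulated data. Log2 CPM used a prior count of 2, CPM was scaled by TMM, and correlations used two-sided permutation tests with 100000 resamples. Over the 45 pairs of libraries the mean chi-square per gene was 37.0 to 687, so none agreed within sampling noise. No label says that each library is a separate mouse, so p-values measure the spread between these libraries, which may be technical. Exon lengths are GENCODE M21 (GRCm38) and promoters RefSeq (GRCm38.p6), where Gys2 had no entry. Floors cover counting error only.

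The members, the lists and the rule for named genes were chosen with earlier results of these data known. The rule named the members, their isoenzymes and partners, the 2 genes of each list with the smallest p where none passed, and the 3 genes most like each member. Saa2, Dbp, Hbb-bs and Arg2 were named as context, the first 3 because they were known to vary between these libraries. Some genes under this rule are not reported here. The search for the carbohydrate response element was added after the data were seen.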

Additional observations from a re-analysis of the deposited data

How the results depend on the processing

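Over 17 alternative settings, 0 of 9 members passed the adjusted threshold in each, and 150 of the 153 values of the members kept their direction. The 3 that turned were those of G6pc, at -0.27 without Flox 2 and 3 and within -0.13 to 0.69 when single libraries were left out. Leaving out single libraries moved the log2 fold change of Pklr between 0.54 and 1.30 and that of Slc2a2 between 0.33 and 1.03. Over all genes, DESeq2 called 11 where edgeR called 0, and 1 of the pathway genes, Angptl8. Among the 11 were the context genes Saa2 (log2 fold change -5.70, adjusted p = 0.0305 by DESeq2) and Hbb-bs (1.21, adjusted p = 0.0278 by DESeq2). The count of genes at an unadjusted p under 0.05, 1193 by edgeR, was 2043 with no count filter and 517 without Flox 2 and 3. When single libraries were left out it was 575 (without Flox 3) to 1885 (without Flox 5), with 739 without LKO column 4. These counts are over unlike numbers of genes tested, 15894 in the main fit and 16551 without Flox 2 and 3. With no count filter every gene with a count was tested, so 2043 is not a larger share by itself. Of the 63 relations, 23 passed, and without Flox 2 and 3 there were 5, all of them among the 23, with 8 libraries in place of 10. For G6pc with Pck1, r was 0.085 with group means subtracted. The titles give the groups no shared numbers. With the column number as a replicate block, 0 of 15894 genes passed and 1535 had an unadjusted p under 0.05, against 1193 without the block. Pklr then had a log2 fold change of 1.09 (adjusted p = 0.506 by edgeR). Before adjustment the edgeR p with this block was under 0.05 for Pklr (0.0042), Gys2 (0.0049), Pfkfb1 (0.018), Fbp1 (0.026), Pygl (0.031) and Pck1 (0.043). It was above 0.05 for Slc2a2 (0.065), Pcx (0.091) and G6pc (0.34). After adjustment over all genes the lowest edgeR p of the 9 members with this block was 0.506. Pklr, Gys2, Pfkfb1, Fbp1 and Pygl moved together over the libraries, so their p-values are not separate results. Same-numbered columns correlated at 0.07 to 0.35 after group means were subtracted. For columns 1 and 5 this r (0.35 and 0.29) was above the highest r of that LKO column with another Flox number (0.28 and 0.06). For columns 2, 3 and 4 it was below. These values do not settle whether columns are paired, and without shared numbers in the titles they were not taken as pairs. The SE of the fold change, with a median of 0.18 over all genes, was exceeded by that of 7 of the 9 members, all but Fbp1 and Pcx, which limits what differences could be shown in them.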
